A study of Mus musculus with 4 samples.

Results

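The genes described here are the interleukin-1 ligands and their antagonist, the receptors and decoy receptor, 2 inflammasome genes and the acute-phase gene Saa3. They were chosen by symbol from a list of 10, of which 9 had a row among the 17194 genes of the count table and all 9 passed the low-count filter, beside 15651 genes tested in all. Il1a had no row and was not analysed here. The 4 libraries hold polyadenylated RNA of primary mouse macrophages grown from bone marrow and kept with RANKL, the cytokine that drives such precursors toward osteoclasts, until day 2. In 2 of them, siHells, the chromatin remodeller Hells had been knocked down with an siRNA, and the other 2, siControl, carried the control siRNA. All groups had RANKL, so no library shows the cells without it. The sources used here give neither strain, sex and age nor how many animals or cultures stand behind the libraries, so the spread that the p-values rest on may be technical.

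Interleukin-1 alpha and beta bind the receptor Il1r1, which signals once the accessory chain Il1rap has joined it. The antagonist Il1rn occupies Il1r1 without signalling, and the decoy Il1r2 binds the ligands without a signalling domain. Interleukin-1 beta and interleukin-18 are made as precursors that caspase-1 (Casp1) cuts once a sensor such as Nlrp3 has assembled an inflammasome. Saa3 is a serum amyloid A protein that mouse macrophages and other cells outside the liver make in inflammation. Interleukin-1 is known to promote osteoclast formation and resorption.

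Saa3, Il1r2, Il18, Nlrp3 and Il1r1 were higher in siHells and Il1rn was lower. Il1b passed the threshold downward at very low counts, and Casp1 and Il1rap did not pass it. Thus 5 members rose and 2 fell, an adjusted p under 0.05 being the call. Of all genes tested 28.8% were called higher, 29.3% lower and 58.1% in either direction, so a call in itself sets a gene little apart here. With library totals in place of TMM, 3752 genes were higher and 5477 lower, in place of 4511 and 4589. The groups did not overlap in 8 of the 9 members, against 78.5% of all genes. Each adjusted p for a gene comes from edgeR (quasi-likelihood F test, Benjamini-Hochberg over every gene tested), and CPM stands for TMM-scaled counts per 1e+06 reads.

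The 300-base windows around the starts of the 3 members with the largest rises and of Il1rn are shown because these members carry the differences below. They are RefSeq sequences of GRCm38.p6, 250 bases before the start to 50 after it, read 5′ to 3′ on the gene's strand. Il1rn has 3 windows and the one farthest upstream is given. The RefSeq start of Il1r2 lies downstream of the GENCODE M21 start at 40074079, so its window is inside the gene as given further on, and the letters at the GENCODE start were not examined. Capitals mark matches, on either strand, to TTNNGNAA for C/EBP factors, GGGNNNNNCC for NF-kB, TGANTCA for AP-1 and GNACANNNTGTNC for the glucocorticoid receptor.
Saa3 (chr7:46715627-46715926, minus strand): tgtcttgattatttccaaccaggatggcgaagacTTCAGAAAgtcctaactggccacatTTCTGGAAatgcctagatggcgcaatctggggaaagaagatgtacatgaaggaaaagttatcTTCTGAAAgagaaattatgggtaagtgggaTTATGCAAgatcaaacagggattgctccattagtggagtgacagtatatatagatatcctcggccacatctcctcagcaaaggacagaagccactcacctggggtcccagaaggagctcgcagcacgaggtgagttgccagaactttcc
Il1r2 (chr1:40085843-40086142, plus strand): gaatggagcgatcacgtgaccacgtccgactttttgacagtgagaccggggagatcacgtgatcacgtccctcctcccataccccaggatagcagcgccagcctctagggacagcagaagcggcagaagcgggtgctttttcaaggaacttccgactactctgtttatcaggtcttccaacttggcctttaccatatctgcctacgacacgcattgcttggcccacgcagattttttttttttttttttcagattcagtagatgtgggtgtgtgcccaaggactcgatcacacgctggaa
Il18 (chr9:50554450-50554749, plus strand): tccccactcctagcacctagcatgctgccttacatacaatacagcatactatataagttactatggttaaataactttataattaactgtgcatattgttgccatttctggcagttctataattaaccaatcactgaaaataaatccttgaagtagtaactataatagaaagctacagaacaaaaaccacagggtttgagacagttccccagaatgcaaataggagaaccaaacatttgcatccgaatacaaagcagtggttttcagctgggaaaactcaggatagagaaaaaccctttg
Il1rn (chr2:24336610-24336909, plus strand): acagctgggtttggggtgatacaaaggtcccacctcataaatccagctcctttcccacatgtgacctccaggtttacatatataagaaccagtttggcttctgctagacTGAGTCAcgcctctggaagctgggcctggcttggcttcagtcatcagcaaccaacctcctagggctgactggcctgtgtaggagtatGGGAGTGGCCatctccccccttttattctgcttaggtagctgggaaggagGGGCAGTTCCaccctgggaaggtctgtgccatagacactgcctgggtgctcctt

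The Saa3 window held 4 matches to the C/EBP letters, none overlapping another. Among all 32851 RefSeq windows, 40.7% held at least 1 match and 1.16% held at least 4. The cutoff of 4 was the Saa3 window's own count, so the 1.16% was computed with that value in view. No such share was computed for the other motifs. The upstream Il1rn window held 2 matches to the NF-kB letters, where 50.8% of all windows held at least 1. It held 1 match to the AP-1 letters, where 7.81% held at least 1. The other 2 Il1rn windows overlap and hold the same sites: 3 C/EBP matches, of which 2 overlap, and 1 NF-kB match. The Il1r2 and Il18 windows held none of the 4 motifs. The window of Il1rap, a member that was not called, held 9 NF-kB matches, some of them the same letters read on both strands. The glucocorticoid receptor letters, present in 0.475% of all windows, matched in no window of any member. Saa3 had 5 CpG dinucleotides, Il1r2 16, and Il18 and the upstream Il1rn window 1 each, where the median of all windows was 7. A match is only a run of letters, and its absence says nothing about binding elsewhere.

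Hells itself, the target of the siRNA, was 1.99-fold lower (14.9 ± 0.390 CPM in siHells and 29.7 ± 0.459 CPM in siControl, SD, n = 2 each; adjusted p = 5.90e-09). Total counts lay between 48873635 and 55642819 per library. Of 8 macrophage markers 7 rose and 1 fell, and their summed level was 23955 and 23268 CPM in siHells against 15598 and 15740 CPM in siControl. Most of that sum was Lyz2, at 17284 ± 412 CPM in siHells and 11347 ± 70.0 CPM in siControl. All 10 osteoclast markers fell, with sums of 1436 and 1397 CPM in siHells against 8662 and 8726 CPM in siControl. Every marker of these lists was thus called, against 58.1% of all genes. In bulk RNA, fewer cells of a type and less RNA per cell cannot be told apart. Csf1r, the receptor that defines the macrophage lineage, was at 2874 ± 25.9 CPM in siHells and 1730 ± 13.04 CPM in siControl.

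**Figure D1:**
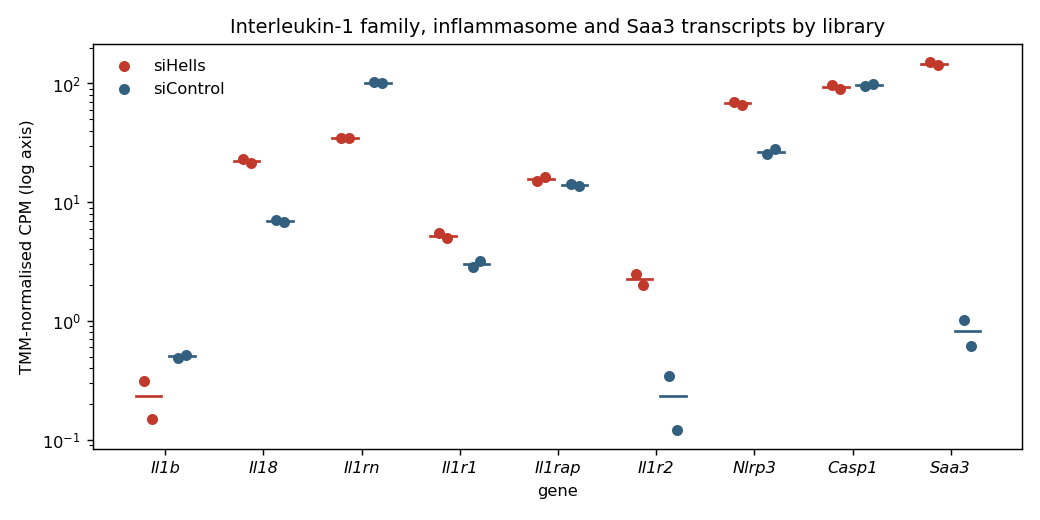
TMM-normalised CPM on a log axis for the 9 members, siHells in red left of siControl in blue. Points are libraries and bars the mean of 2; Saa3 lies at 150 and 142 CPM in siHells, against 1.02 and 0.619 CPM in siControl.

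Among the ligands, interleukin-18 rose, while the fall of interleukin-1 beta rested on few counts. Il18 had 1254 and 1137 counts in siHells against 387 and 340 in siControl, which is 23.1 and 21.2 CPM against 7.04 and 6.79 CPM. Both siHells libraries lay far above both siControl libraries. The rise was 3.20-fold (log2 fold change 1.68, SE 0.089, adjusted p = 2.62e-10). Il18 lies on chromosome 9 at 50554827 to 50581840 of GRCm38, plus strand. The genes Bco2 and Tex12 overlap it on the opposite strand, with 0 shared exon bases.

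Il1b was close to the detection limit in every library. It had 17 and 8 counts in siHells against 27 and 26 in siControl, or 0.314 and 0.149 CPM against 0.491 and 0.520 CPM. The siHells libraries were the lower pair but differed between themselves. The log2 fold change was -1.12 (SE 0.46, adjusted p = 0.0484), and the summed counts were 2.18 times lower, with a 95% exact binomial interval of 1.33 to 3.66 that covers counting error only. Its 8 counts in siHells replicate 2 lay under the filter's minimum of 10, and the gene passed through the other libraries. The call was lost at a threshold of 0.01, with no filter (adjusted p = 0.0542), with the DESeq2 Wald test (adjusted p = 0.186), without siHells replicate 2 (log2 fold change -0.68, adjusted p = 0.331), without siControl replicate 1 (adjusted p = 0.110) and without siControl replicate 2 (adjusted p = 0.143). Without siHells replicate 1 the log2 fold change was -1.74 (adjusted p = 0.0216), and adjusted p over all alternatives ran from 0.0216 to 0.331. Il1b is on chromosome 2 at 129364570 to 129371139, minus strand, and shares 25 exon bases with the antisense gene Il1bos.

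The antagonist Il1rn fell in siHells. Its counts were 1882 and 1879 in siHells against 5608 and 5040 in siControl, or 34.7 and 35.0 CPM against 102 and 101 CPM. Replicates lay close together and the groups were far apart. The fall was 2.91-fold (log2 fold change -1.54, SE 0.045, adjusted p = 2.21e-13), and it lay between -1.54 and -1.53 on the log2 scale whichever library was left out. Il1rn is on chromosome 2 at 24336853 to 24351494, plus strand, and the count table does not separate its secreted and intracellular forms.

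The ratio of antagonist to Il1b transcripts within a library, per kilobase of exon, was 38.1 and 80.9 in siHells against 71.6 and 66.8 in siControl. The groups overlapped, and no difference was detectable (mean log2 difference -0.32, two-sided exact permutation p = 1, where 2 libraries against 2 cannot go below 0.333). The low counts of Il1b set this ratio: without siHells replicate 1 the difference was 0.23.

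The decoy receptor Il1r2 rose, and in siControl it was near the detection limit. Il1r2 had 136 and 108 counts in siHells against 19 and 6 in siControl, or 2.51 and 2.01 CPM against 0.346 and 0.120 CPM. The lower siHells library was well above the higher siControl library, although the siControl pair differed between themselves. The log2 fold change was 3.24 (SE 0.37, adjusted p = 2.01e-06), and the ratio of summed counts was 9.502, with an exact binomial interval of 6.28 to 14.97 for counting error only. Without siControl replicate 1 the log2 fold change was 4.203 and without siControl replicate 2 it was 2.71, past the threshold both times. Il1r2 is on chromosome 1 at 40074079 to 40125231, plus strand.

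Il1r1, the signalling receptor, had 299 and 266 counts in siHells against 158 and 159 in siControl. That is 5.52 and 4.96 CPM in siHells against 2.87 and 3.18 CPM in siControl, again without overlap. The rise was 1.73-fold (log2 fold change 0.79, SE 0.15, adjusted p = 3.09e-04). Il1r1 follows Il1r2 on the same strand of chromosome 1, at 40225080 to 40317257, with the starts 151 kb apart.

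Decoy and receptor can be compared within a library, which scaling between libraries does not affect. Per kilobase of exon, the ratio of Il1r2 to Il1r1 was 1.52 and 1.35 in siHells against 0.401 and 0.126 in siControl. The siHells ratios were above 1 and the siControl ratios below it, with a mean log2 difference of 2.67, or 6.38-fold (two-sided exact permutation p = 0.333, the smallest this design allows). It was 3.51 without siControl replicate 1 and 1.84 without siControl replicate 2, so its size rests on the few Il1r2 counts in siControl. From counts without regard to length the ratios were 0.455 and 0.406 in siHells against 0.120 and 0.0377 in siControl, so which transcript is the more abundant in siHells depends on length, while the difference between groups does not.

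Il1rap, the accessory chain shared by several receptors of the family, had 825 and 876 counts in siHells against 775 and 690 in siControl. At 15.2 and 16.3 CPM in siHells against 14.1 and 13.8 CPM in siControl the groups were narrowly separate, and the gene was not called (log2 fold change 0.18, SE 0.082, adjusted p = 0.0772). Without siHells replicate 1 it was called, at an adjusted p = 0.0467. It lies on chromosome 16 at 26581704 to 26730117, plus strand, and shares 552 exon bases with the antisense gene Gm20319, and without strand the reads of the pair cannot be told apart.

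In the inflammasome, the sensor and the protease differed in their response. Nlrp3, the sensor, had 3817 and 3562 counts in siHells against 1394 and 1392 in siControl, or 70.4 and 66.4 CPM against 25.4 and 27.8 CPM. The siHells libraries were both above both siControl libraries, and the rise was 2.57-fold (log2 fold change 1.36, SE 0.058, adjusted p = 1.96e-11). Nlrp3 lies on chromosome 11 at 59541568 to 59566956, plus strand.

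Casp1, the protease that matures interleukin-1 beta and interleukin-18, was the only member whose groups overlapped. It had 97.46 and 90.1 CPM in siHells against 94.9 and 98.3 CPM in siControl, from 4833 to 5283 counts per library. The log2 fold change was -0.04 (SE 0.045, adjusted p = 0.443). With library totals in place of TMM it was -0.12 and passed the threshold (adjusted p = 0.0380), and without siHells replicate 2 it was 0.017. Casp1 lies on chromosome 9 at 5298517 to 5307265, plus strand.

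Saa3 changed the most of the members and had the third highest log2 fold change of all genes tested. Genes with a count of 0 in any library had no row, so they are outside this ranking. The Saa3 counts were 8156 and 7603 in siHells against 56 and 31 in siControl, or 150 and 142 CPM against 1.02 and 0.619 CPM. It was low in both siControl libraries and among the abundant members in both siHells libraries. The rise was 176-fold (log2 fold change 7.46, SE 0.098, adjusted p = 1.64e-16), and the ratio of summed counts had an exact binomial interval of 143 to 220 for counting error only. Leaving out a library moved the log2 fold change to between 7.17 and 7.87. Saa3 is on chromosome 7 at 46711998 to 46715700, minus strand, and its relatives Saa1, Saa2 and Saa4 had no row in the table. Reads of this family of similar genes may be split, so the level of Saa3 carries that uncertainty.

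**Figure D2:**
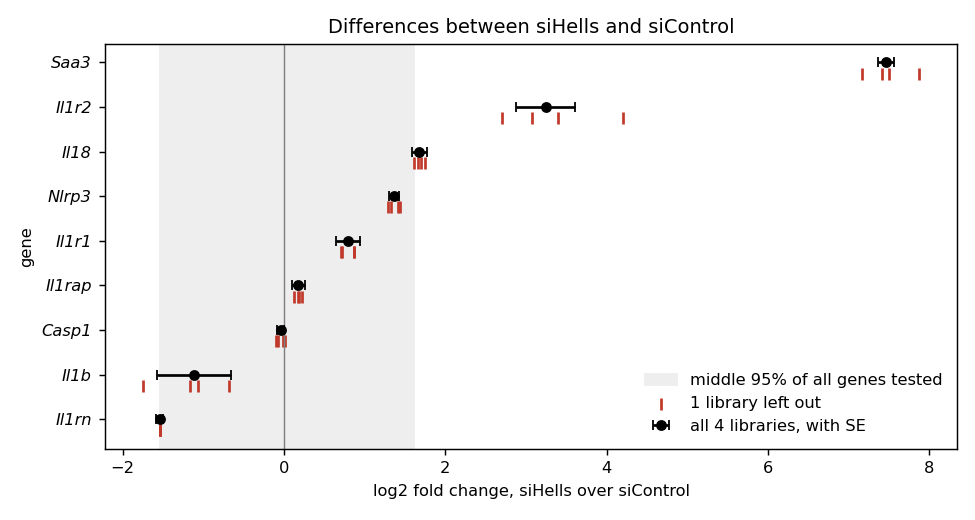
Log2 fold change of siHells over siControl for the 9 members: black points with the standard error, red ticks for the values with 1 library left out, and a grey band for the middle 95% of all genes tested, from -1.54 to 1.61. Saa3 at 7.46, Il1r2 at 3.24 and Il18 at 1.68 lie above the band, and Il1rn, at -1.540, lies just past its lower edge of -1.536. The ticks of Il1b and Il1r2 spread the most.

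Levels of different members were compared per length, as CPM per kilobase of all annotated exons joined (GENCODE M21). In siHells the order of mean level per kilobase was Casp1, Saa3, Il18, Nlrp3, Il1rn, Il1rap, Il1r2, Il1r1 and Il1b. In siControl it was Casp1, Il1rn, Il18, Nlrp3, Il1rap, Il1r1, Saa3, Il1b and Il1r2. By this length Casp1 led in each group, at 62.6 ± 3.49 in siHells and 64.5 ± 1.61 in siControl. Whether Casp1 or Saa3 came first in siHells depended on the length used, as given below. Saa3 was just under Casp1 in siHells and near the low end in siControl, at 56.1 ± 2.37 in siHells and 0.314 ± 0.108 in siControl.

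The neighbours in this order had separate libraries in siHells. In siControl, Il18 (6.71 ± 0.169) and Nlrp3 (6.55 ± 0.428) did not differ beyond their spread, nor did Saa3 (0.314 ± 0.108) and Il1b (0.265 ± 0.0105). Counted per kilobase of the longest coding transcript, a length chosen after seeing the data, Saa3 came first in siHells with a level of 66.4, against 62.6 for Casp1.

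**Figure D3:**
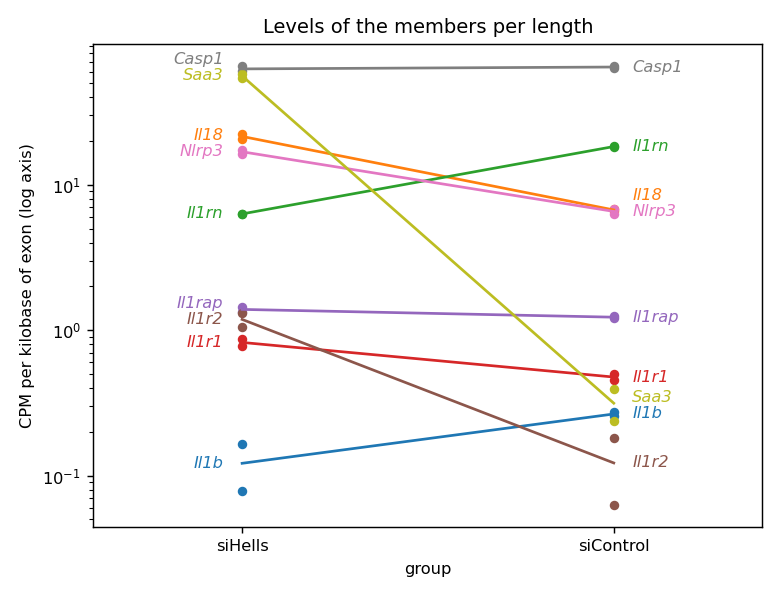
CPM per kilobase of exon on a log axis for the 9 members, siHells left and siControl right. Points are libraries and lines join the group means; Saa3 crosses 5 other members and Il1rn is the fifth in siHells and the second in siControl.

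The profiles most like Saa3 and Il1rn, the members with the largest rise and fall, were sought by Euclidean distance between log2 CPM centred on the siControl mean, over the 4 libraries. Nearest to Saa3 was Jaml, a leukocyte adhesion molecule, at a distance of 0.16. It had 336 and 324 CPM in siHells against 2.17 and 1.56 CPM in siControl. Hif3a, Cd38, Zbtb16 and Ms4a8a followed at distances of 1.34 to 2.77. Il1rn had much closer company, led by Gpr137b-ps, Cd300ld, Acsl1, Mid1ip1 and Galnt12 at distances of 0.034 to 0.067. Profiles over 4 libraries in 2 groups mostly compare fold changes.

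Around the members, 117 further genes of the pathway were tested from 6 lists, and 65 rose and 30 fell. Together 81.2% were called, against 58.1% of all genes, and the median log2 fold change was 0.22, against -0.0042 for all genes. The lists were chosen with earlier results of these data known, so this difference from all genes is not an independent result. The lists differed in how they moved, and each count below stands beside 28.8% of all genes called higher and 29.3% called lower. Any gene named beyond the 4 with the smallest p of its list was picked with its values in view.

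For the other ligands, receptors and binding proteins of the interleukin-1 family, 18 symbols were listed. Some were older and newer names of the same gene, such as Il1f9 and Il36g. In the table were 6, of which 3 rose and 2 fell (median log2 fold change 0.37). Il1rl2, the receptor for interleukin-36, rose 5.14-fold to 15.4 ± 0.766 CPM in siHells, against 2.999 ± 0.030 CPM in siControl. Il1f9, which encodes the ligand interleukin-36 gamma, fell 13.8-fold to 0.389 ± 0.102 CPM in siHells, against 5.42 ± 0.615 CPM in siControl (SD, n = 2 each). Il1f9 had 25 and 17 counts in siHells against 274 and 293 in siControl. This receptor and this ligand thus moved in opposite directions, while Il36a, Il36b and Il36rn of the same branch had no row.

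On the interleukin-18 side, Il18bp, a secreted protein that neutralises interleukin-18, rose 3.45-fold to 25.7 ± 0.823 CPM in siHells, against 7.43 ± 1.15 CPM in siControl. Il18rap, a chain of the interleukin-18 receptor, rose 2.33-fold, while the other chain, Il18r1, had no row. Sigirr, which restrains signalling by receptors of the family, fell 2.096-fold, to 2.93 ± 0.310 CPM in siHells, against 6.14 ± 0.071 CPM in siControl. Il1rl1, the interleukin-33 receptor, was not called (log2 fold change -0.47, adjusted p = 0.250).

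Signalling below the receptor moved in small steps in both directions. Of 37 genes 16 rose and 13 fell, with a median log2 fold change of 0.018. Called in either direction were 78.4%, against 58.1% of all genes. Mapk14, the p38 alpha kinase, rose 1.52-fold, Peli2, a ubiquitin ligase that acts on receptor kinases, 2.04-fold, and Nfkbiz, a nuclear IkB protein, 2.13-fold. Nfkbid, another nuclear IkB protein, fell 1.83-fold, to 20.5 ± 0.097 CPM in siHells, against 37.6 ± 2.70 CPM in siControl.

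Inflammasome, pyroptosis and release genes rose in 17 cases and fell in 6 of 28 tested (median log2 fold change 0.34). Ninj1, which ruptures the plasma membrane of dying cells, rose 2.42-fold to 638 ± 25.5 CPM in siHells, against 264 ± 2.56 CPM in siControl. Naip5, a sensor of flagellin, rose 1.87-fold, though reads of the similar Naip genes may be split. Gsdmd, whose cleaved form makes the pores through which interleukin-1 beta leaves, fell 1.56-fold, to 205 ± 0.113 CPM in siHells, against 319 ± 0.625 CPM in siControl. Pstpip1, which binds pyrin, fell 1.90-fold, and the adaptor Pycard rose 1.26-fold. Nlrp12 was too low to test.

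Acute-phase genes other than Saa3 were mostly higher, with 8 of 11 tested genes rising and 1 falling (median log2 fold change 1.27). Hp, haptoglobin, rose 10.2-fold to 60.2 ± 1.32 CPM in siHells, against 5.89 ± 0.189 CPM in siControl. Cp, the copper oxidase ceruloplasmin, rose 3.89-fold and the complement component C3 1.99-fold. Steap4, a metalloreductase, fell 6.69-fold, to 3.08 ± 0.363 CPM in siHells, against 20.6 ± 0.0057 CPM in siControl. The other 14 genes of this list had no row, among them Saa1, Saa2 and Crp.

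Receptors proposed for serum amyloid A and genes of interleukin-6 signalling were higher in 15 of 17 cases and lower in 1 (median log2 fold change 0.72). Il6ra, the interleukin-6 receptor, rose 2.33-fold, Il6st, its signalling chain, 1.92-fold, and Socs3, a feedback inhibitor, 4.15-fold. Fpr2, a formyl peptide receptor that binds serum amyloid A, rose 4.56-fold to 10.8 ± 1.01 CPM in siHells, against 2.36 ± 0.396 CPM in siControl. The exception was the scavenger receptor Cd36, which fell 1.89-fold. Il6 had no row.

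Inflammatory genes known to be induced by interleukin-1 or NF-kB were split, with 6 of 19 higher and 8 lower (median log2 fold change -0.16). Called in either direction were 73.7%, against 58.1% of all genes, where 28.8% were higher and 29.3% lower. Vcam1, an adhesion molecule, rose 42.8-fold and the cytokine Il10 3.03-fold. The manganese superoxide dismutase Sod2 fell 1.43-fold, the collagenase Mmp13 3.87-fold, and Tnf 2.06-fold, to 1.59 ± 0.644 CPM in siHells, against 3.28 ± 0.092 CPM in siControl.

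Il1r2 also stood on a list of glucocorticoid-induced genes, and the other 17 genes of that list all rose (median log2 fold change 2.82, against -0.0042 for all genes). Of all genes 28.8% were called higher. This list too was chosen with earlier results of these data known, so the rise of its genes is not an independent result. Fkbp5, a co-chaperone of steroid receptors, rose 43.3-fold to 800 ± 21.1 CPM in siHells, against 18.5 ± 0.257 CPM in siControl. Tsc22d3 rose 12.8-fold, Ddit4 37.7-fold and Sult1a1 15.4-fold. The part of this change in that of Il1r2 or Saa3 was not tested.

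**Figure D4:**
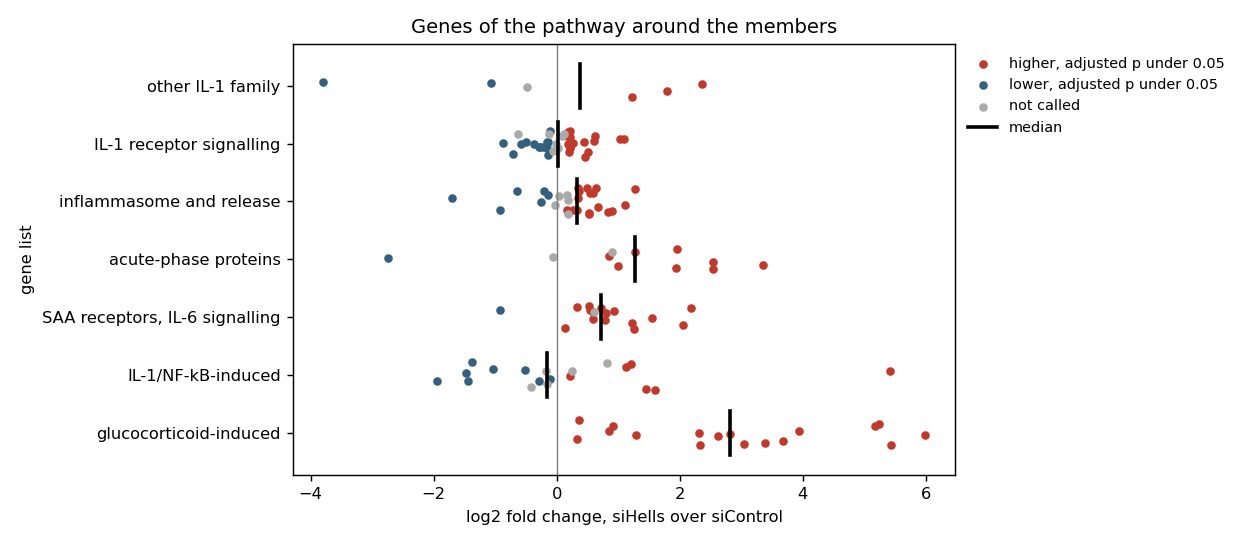
Log2 fold change of siHells over siControl for each tested gene of 7 lists, red where called higher, blue where called lower and grey where not called, with the median as a black bar. Acute-phase proteins (median 1.27) and glucocorticoid-induced genes (2.82) lie to the right, and interleukin-1 receptor signalling (0.018) is centred near 0.

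Markers of other cells that can express these genes were measured beside them. For scale, 28.8% of all genes were called higher and 29.3% lower. Of 14 neutrophil markers tested 4 rose and 5 fell, so 64.3% were called, near the 58.1% of all genes. Their summed levels were 619 and 602 CPM in siHells against 594 and 599 CPM in siControl, and Ly6g had no row. Of 9 stromal markers 7 rose and 2 fell, and their sums were 1810 and 1782 CPM in siHells against 1011 and 1034 CPM in siControl. The part of the stromal difference in that of Saa3, which fibroblasts can also make, was not tested. Summed mast cell and basophil markers were 4.45 and 4.53 CPM in siHells against 4.93 and 5.74 CPM in siControl, with Fcer1a and Ms4a2 without a row. Lymphocyte markers came to 6.36 and 6.32 CPM in siHells against 6.53 and 6.75 CPM in siControl, with no row for Cd3e or Cd79a. Dendritic cell markers came to 9.5004 and 9.08 CPM in siHells against 18.4 and 19.5 CPM in siControl, where 2 of 5 rose and 1 fell. The gene that fell, Itgax, carries the lower sum, at 0.870 ± 0.335 CPM in siHells and 13.9 ± 0.533 CPM in siControl, while Flt3 and Zbtb46 rose.

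Several members sit in gene clusters, so the tested genes whose starts lay within 250 kb of a member's start were examined. Of 46 such genes, counted once each, 14 rose (30.4%, against 28.8% of all genes) and 19 fell (41.3%, against 29.3%). Those that rose include the members Il1r1 and Il1r2, as neighbours of each other. Around Saa3, the 7 tested neighbours ranged from -0.64 to 0.36 on the log2 scale, and Saal1, the nearest, was not called (log2 fold change 0.18, adjusted p = 0.121).

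The neighbours of the other members moved in both directions. Around Il18, 5 of 13 rose and 5 fell (median log2 fold change -0.13). Among them was Bco2, a carotenoid oxygenase gene on the opposite strand with its start 0.354 kb from that of Il18, which rose 2.02 on the log2 scale, to 9.76 ± 1.23 CPM in siHells, against 2.40 ± 0.056 CPM in siControl. Around Nlrp3, which rose, 3 of 8 rose and 4 fell (median log2 fold change -0.25). In the receptor cluster, Il1r2, Il1r1 and Il1rl2 rose, Il1rl1 was not called, and the kinase gene Map4k4, beside Il1r2, fell by 0.40 on the log2 scale. Both tested neighbours of Il1rn were lower, Il1f9 by a log2 fold change of -3.79 and Psd4 by -0.50. Next to Casp1, which was not called, the related protease genes Casp4 and Casp12 rose by log2 fold changes of 0.58 and 1.71. Around Il1b, 4 of 8 neighbours fell and 0 rose, and the 1 tested neighbour of Il1rap was not called.

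**Figure D5:**
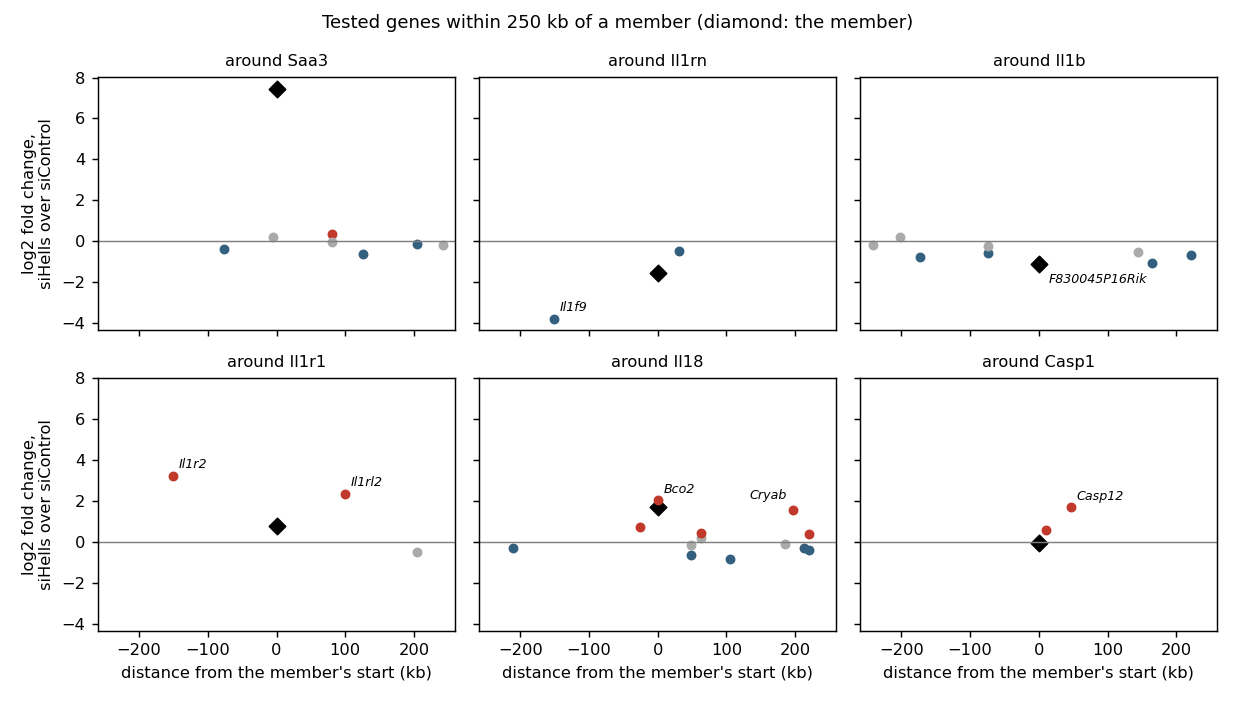
Log2 fold change of siHells over siControl for tested genes against the distance of their starts from that of 6 members, in kilobases. The diamond is the member; red genes were called higher, blue lower and grey not called, and genes beyond 1 in either direction are named.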

How the data were processed

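Polyadenylated RNA of 2 siHells and 2 siControl libraries was analysed, grouped by their titles. The deposited values are raw counts of reads, 1 row per gene symbol, in a table whose lowest count was 1, with 0 values of 0. No gene with a count of 0 in any library is thus among those analysed here. Per the submitters' processing notes, the build was mm10 and the tools included HISAT2 2.1.0 and StringTie 2.1.3b, with no roles given. The labels' protocols name both a SMARTer and a TruSeq Stranded kit, so the strand setting of the counting is unknown.

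Genes were kept with filterByExpr (minimum count 10, minimum total 15), which removed 1543, and scaled by TMM. The edgeR 4.0.16 quasi-likelihood test (R 4.3.3, robust, group as the only term, 2 residual degrees of freedom) was fitted on all genes, and a call is a Benjamini-Hochberg adjusted p under 0.05. Totals were 55642819 and 55012697 in siHells and 53502523 and 48873635 in siControl, so 10 counts stand for 0.182 to 0.200 CPM. Replicates differed beyond sampling noise (chi-square per gene 6.26 in siHells and 3.45 in siControl). Alternatives used DESeq2 1.42.0 and limma 3.58.1 (voom).

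Exon lengths and coordinates are from GENCODE M21 (GRCm38), and promoter windows, found for all 10 members, from RefSeq GRCm38.p6. Named were the members, up to 4 genes with the smallest p per list, and the 5 nearest profiles of 2 members (log2 CPM with a prior count of 2). Further genes of the lists were named with their values in view. Members and lists were chosen with earlier results of these data known.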

Additional observations from a re-analysis of the deposited data

How the results depend on the processing

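Each member's log2 fold change was recomputed under other scalings, filters, tests and thresholds and without each library. Of 107 alternatives over the 9 members 98 kept both direction and call. Exceptions are the calls of Il1b, Casp1 and Il1rap, and Casp1 changed sign without siHells replicate 2, at 0.017, with a range of -0.098 to 0.017 when a library was left out. The number of members lower was 1 in place of 2, through the loss of Il1b, with no filter, with at least 1 CPM in 2 libraries (which removes Il1b), with the DESeq2 Wald test and at a threshold of 0.01, and 1 to 2 with a library left out. With library totals it was 3, through the call of Casp1. The number of members higher was 5 under each of these except without siHells replicate 1, where Il1rap made it 6. The log2 difference in the ratio of Il1r2 to Il1r1 ran from 1.84 to 3.51 when a library was left out. That of Il1rn to Il1b reversed to 0.23 without siHells replicate 1, with a range of -0.86 to 0.23 when a library was left out. Per kilobase of the longest coding transcript, an alternative added after seeing the data, Saa3 took place 1 in siHells in place of 2, and place 8 in siControl in place of 7.

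Same-numbered libraries shared only a number, as the labels give no pairing and their deviations correlated at 0.050 over 15651 genes. With the replicate number as a block, 4457 genes were higher and 4535 lower in place of 4511 and 4589, and 5 and 2 of the members. Counts under 30 per library limit Il1b and, in siControl, Il1r2.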
